A study of Homo sapiens with 6 samples.

Results

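The Kruppel-like transcription factors (KLFs) were followed in BT-549 cells, an established triple-negative breast cancer (TNBC) line, after silencing of the long noncoding RNA NEAT1. The longer NEAT1 isoform is the scaffold of nuclear paraspeckles, and the gene-level values used here do not separate the isoforms. The genes KLF2, KLF3, KLF4, KLF5, KLF6, KLF7, KLF9, KLF10, KLF11 and KLF13 were taken by symbol from the expression table, which gave 10 of its 25545 genes. Cells grown in RPMI1640 with serum and insulin had been transfected with a control siRNA (CsiRNA) or a NEAT1 siRNA (NEAT1siRNA) 48 h before total RNA was isolated, with 3 libraries per group, made with a stranded mRNA kit. Both groups carry a tet tag in the name of the line, and both are cultures of 1 line and of 1 siRNA each, so that effects of the siRNA other than on NEAT1 cannot be told apart from those of NEAT1 loss. The labels do not say that same-group libraries came from separate experiments, and the p-values measure only the spread between these libraries. Levels are in TPM, a length-scaled share of the transcripts in each library that sums to 1000000.

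KLFs share a C-terminal DNA-binding domain of C2H2 zinc fingers that contacts GC-rich elements and CACCC boxes, and they differ in the N-terminal part that recruits partners. KLF2, KLF4, KLF5, KLF6 and KLF7 carry activating regions, KLF3 binds the corepressor CtBP, and KLF9, KLF10, KLF11 and KLF13 bind the corepressor SIN3. In epithelial and mesenchymal cells the family is known for control of growth arrest, differentiation and the response to TGF-beta and glucocorticoids, and several members are short-lived mRNAs.

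The 250 bases before the transcription start of the 3 members that passed the test are shown because their changes went in different directions, and the windows differ in base composition and in the motifs they hold. They are from RefSeq (GRCh38.p14), run 5′ to 3′ on the strand of the gene, and capitals mark matches on either strand. Where RefSeq gave several windows, as for KLF7 with 4, the one nearest the start of the canonical transcript was taken. The KLF4 and KLF7 windows lie inside the gene spans given below, so starts further upstream are annotated and were not searched. The motif marked in the KLF4 window is the GC box, with the letters GGGCGG, together with an E-box, whose letters are CACGTG. The KLF7 window is marked at its CACCC boxes.
KLF4 promoter, chr9:107489770-107490019 (minus strand): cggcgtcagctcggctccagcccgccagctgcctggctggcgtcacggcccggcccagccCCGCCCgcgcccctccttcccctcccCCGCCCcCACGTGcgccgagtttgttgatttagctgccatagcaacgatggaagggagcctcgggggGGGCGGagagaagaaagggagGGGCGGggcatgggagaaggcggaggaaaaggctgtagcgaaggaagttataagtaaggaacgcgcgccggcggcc
KLF9 promoter, chr9:70414658-70414907 (minus strand): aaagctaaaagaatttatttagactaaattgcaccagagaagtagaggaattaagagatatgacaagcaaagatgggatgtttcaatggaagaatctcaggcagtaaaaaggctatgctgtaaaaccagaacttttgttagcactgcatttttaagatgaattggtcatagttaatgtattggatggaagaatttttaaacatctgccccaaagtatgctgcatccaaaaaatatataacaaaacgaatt
KLF7 promoter, chr2:207165949-207166198 (minus strand): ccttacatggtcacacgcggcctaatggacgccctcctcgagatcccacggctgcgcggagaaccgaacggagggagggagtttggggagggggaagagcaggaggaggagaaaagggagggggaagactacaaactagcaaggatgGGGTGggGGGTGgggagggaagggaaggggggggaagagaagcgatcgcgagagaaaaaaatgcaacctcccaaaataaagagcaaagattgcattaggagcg

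The KLF4 window held 4 GC boxes and 1 E-box, the KLF7 window held 2 CACCC boxes, and the KLF9 window held none of the 6 motifs searched, which also included an AP-1 site (TGACTCA), a CRE (TGACGTCA) and a MEF2 core (TATTTATA). GC content was 69.2% for KLF4, 58.0% for KLF7 and 32.4% for KLF9. A RefSeq window was found for 8 of the 10 members, all but KLF3 and KLF10. A GC box was present in 6 of the 8, against 42.6% of 35116 promoter windows of that length, a CACCC box in 3, against 54.7%, and an E-box in 3, against 6.34%. No member window held the AP-1 site, CRE or MEF2 core, which occurred in 4.20%, 1.65% and 1.35% of all windows. The matches describe these letters only.

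Silencing was checked first. NEAT1, on chromosome 11, was at 13.4, 7.68 and 10.8 TPM in the CsiRNA libraries and at 4.36, 2.96 and 2.73 TPM in the NEAT1siRNA libraries. All 3 silenced libraries lay below the control range, with a mean of 31.5% of CsiRNA and a log2 fold change of -1.41 (SE 0.14, adjusted p = 1.21e-07, limma on log2(TPM + 1)). Depth, rebuilt from the deposited values, was 15788119 to 20343024 reads per library. In every library 64.4% to 68.1% of all TPM came from the short noncoding RNAs RN7SK, RN7SL1, RN7SL2 and RPPH1, so that a change in 1 of these would shift the TPM of every other gene the opposite way. NEAT1siRNA replicates 1 and 2 stood apart in opposite directions by GC content, with a Spearman rho across 10424 genes of 0.68 and -0.73 between a gene's GC content and its deviation from the group mean. That rho was 0.14 for NEAT1siRNA replicate 3, and -0.21, -0.34 and 0.47 for CsiRNA replicates 1 to 3. Deviations within a group sum to 0, so opposite signs within a group are in part fixed. Mesenchymal markers, which fit this line, summed to 1585 to 1781 TPM in CsiRNA and 1445 to 1671 TPM in NEAT1siRNA. Of these 7, FN1 (adjusted p = 0.00116) and CDH2 (adjusted p = 0.0186) fell, the latter not in 3 of the 6 fits that left out 1 library (adjusted p up to 0.143). The part of these markers in the results was not tested. Luminal or epithelial markers summed to 0.116 to 0.263 TPM and 0.397 to 0.419 TPM, endothelial markers to 0.176 to 0.262 and 0.318 to 0.384 TPM, and leukocyte markers to 0.0881 to 0.223 and 0.103 to 0.416 TPM, with ESR1, CD3E, CDH5, VWF and CLDN5 at 0 in all 6 libraries.

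KLF6 was the most abundant member in both groups, followed by KLF10, and the summed level of the 10 genes was 99.8 ± 6.92 TPM (SD, n = 3) in CsiRNA and 97.3 ± 8.29 TPM in NEAT1siRNA, with ranges that overlapped. In CsiRNA the order then went through KLF3 and KLF4, which did not overlap, to KLF7, KLF11 and KLF5, whose ranges overlapped in that order, and to KLF2, KLF9 and KLF13, all below 1 TPM. In NEAT1siRNA, KLF3 and KLF4 overlapped, KLF11 stood above KLF5 and KLF7, and KLF9 stood above KLF2 and KLF13. KLF4 rose and KLF7 fell after NEAT1 silencing, and 5 other tested members did not pass an adjusted p of 0.05. KLF9 was also past that threshold on the higher side, but it reached the level needed for the test only through its NEAT1siRNA libraries. It was not called by limma on log2(TPM + 1) without a TPM filter. The test was limma on log2(TPM + 1), adjusted by the Benjamini-Hochberg method over the 10721 genes with a mean of at least 1 TPM. Of the 10 members, 8 were tested, while KLF2 and KLF13 lay below that level. Across all tested genes 4.99% were called higher and 8.98% lower, beside 2 members called higher, KLF9 included, and 1 called lower. Since KLF9 passed the filter only through the group where it was higher, nothing is read from these counts. The median log2 fold change of the 8, KLF9 among them, was -0.00846, and that of all tested genes was -0.0441. In these bulk samples, fewer cells that express a gene and less of its RNA per cell cannot be told apart.

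**Figure D1:**
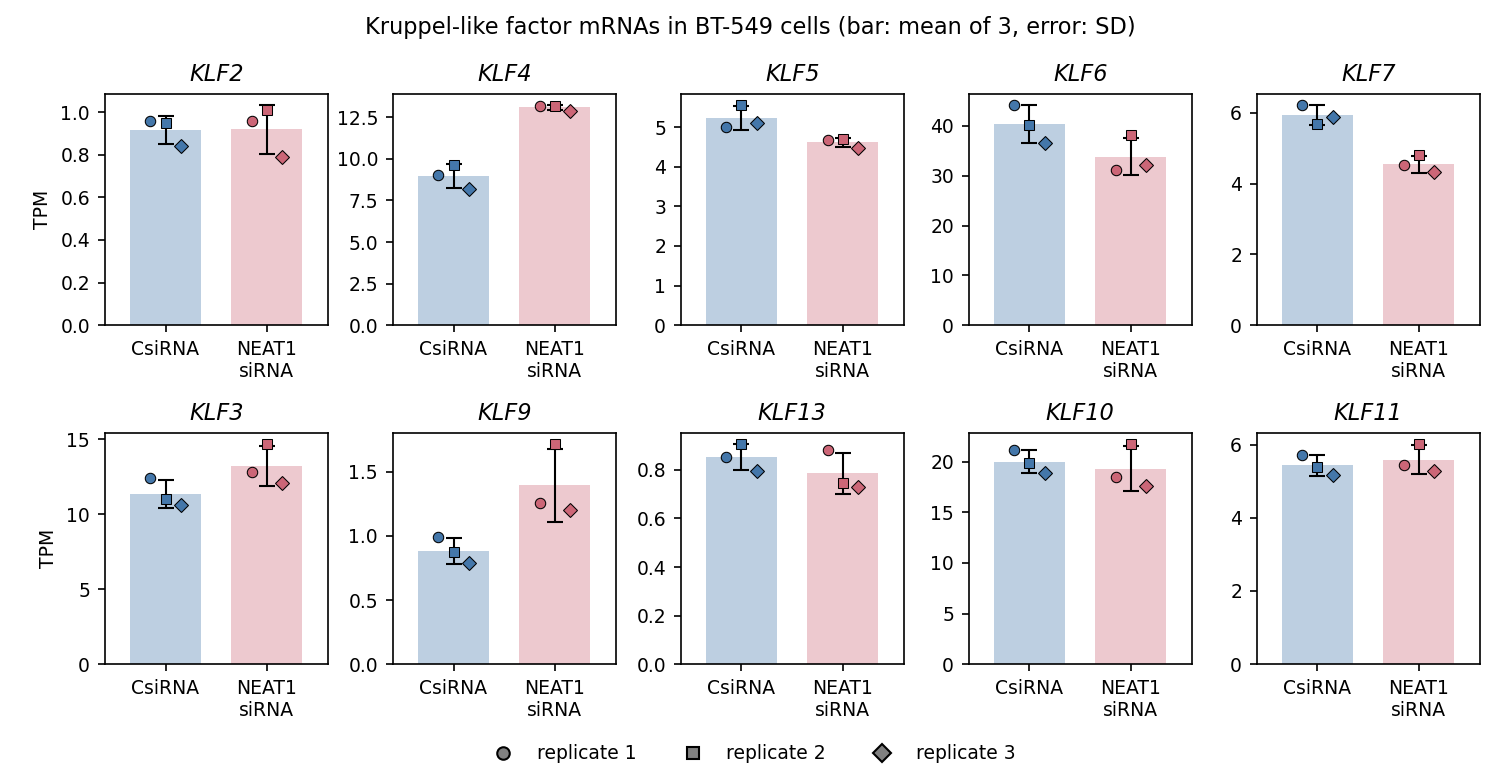
Level in TPM (vertical axes, each starting at 0) of the 10 Kruppel-like factor mRNAs in CsiRNA (blue) and NEAT1siRNA (red) cells. Symbols are the 3 libraries, bars the mean and error bars the SD. The NEAT1siRNA values of KLF4 and KLF9 all lie above the CsiRNA values, those of KLF5 and KLF7 all lie below, and KLF6 overlaps.

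KLF4, an activator known for growth arrest in epithelial cells and for its use in reprogramming, is encoded on the minus strand at chr9:107484852-107490482 (GRCh38). It was at 9.06, 9.62 and 8.19 TPM in CsiRNA and at 13.2, 13.2 and 12.9 TPM in NEAT1siRNA. The lowest silenced library was well above the highest control. The mean went from 8.96 ± 0.720 to 13.1 ± 0.192 TPM (SD, n = 3), a rise of 46.4%, and the log2 fold change was 0.51 (SE 0.093, 95% interval 0.31 to 0.70, adjusted p = 0.000531, limma). The call was made in all 18 alternative settings that were run, with log2 fold changes of 0.45 to 0.61.

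KLF9, a SIN3-binding member known as a target of the glucocorticoid receptor, lies on the minus strand at chr9:70384604-70414657. It was a low mRNA, at 0.990, 0.874 and 0.787 TPM in CsiRNA and 1.26, 1.72 and 1.20 TPM in NEAT1siRNA, and rested on 130.2 reads per library on average. The groups did not overlap, and replicate 2 was the highest of the silenced libraries. The mean went from 0.884 ± 0.102 to 1.39 ± 0.282 TPM (SD, n = 3), a rise of 57.4%. The log2 fold change on log2(TPM + 1), which understates changes at this level, was 0.34 (SE 0.10, 95% interval 0.12 to 0.55, adjusted p = 0.0302, limma). The CsiRNA mean lay below the filter of 1 TPM, so the gene was tested only through its NEAT1siRNA level. With no filter on TPM the call was lost (adjusted p = 0.126). With voom on the rebuilt reads of the same genes the log2 fold change was 0.71 (SE 0.14, adjusted p = 0.00161). The limma call was also lost without NEAT1siRNA replicate 2 (adjusted p = 0.133) and without CsiRNA replicate 3 (adjusted p = 0.0944).

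KLF7, an activator known from neuronal differentiation, lies on the minus strand at chr2:207074137-207173856. It was at 6.23, 5.67 and 5.88 TPM in CsiRNA and 4.53, 4.80 and 4.32 TPM in NEAT1siRNA. All silenced libraries lay below all controls. The mean went from 5.93 ± 0.283 to 4.55 ± 0.243 TPM (SD, n = 3), a change of -23.3%, with a log2 fold change of -0.32 (SE 0.093, 95% interval -0.51 to -0.13, adjusted p = 0.0222, limma). The call was lost without CsiRNA replicate 1 (adjusted p = 0.0941), without CsiRNA replicate 3 (adjusted p = 0.0514) and without NEAT1siRNA replicate 3 (adjusted p = 0.101), while the log2 fold change stayed between -0.35 and -0.29. It was lost, too, with no filter on TPM (adjusted p = 0.0796).

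KLF6 and KLF3 were called or not depending on how the libraries were scaled. KLF6, a ubiquitous activator and growth suppressor encoded on chromosome 10, was at 44.3, 40.1 and 36.6 TPM in CsiRNA and 31.2, 38.1 and 32.2 TPM in NEAT1siRNA. Silenced replicate 2 lay within the control range and the other two below it. The log2 fold change was -0.25 (SE 0.098, 95% interval -0.45 to -0.043, adjusted p = 0.0981, limma). KLF6 was called lower in 8 of 18 alternatives, among them TPM rescaled without the 4 abundant short RNAs (adjusted p = 0.0439) and the fit without NEAT1siRNA replicate 2 (adjusted p = 0.00421).

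KLF3, the CtBP-binding repressor on chromosome 4, was at 12.4, 11.0 and 10.6 TPM in CsiRNA and 12.8, 14.7 and 12.1 TPM in NEAT1siRNA, ranges that overlapped. Its log2 fold change was 0.20 (SE 0.098, adjusted p = 0.182, limma). It was called higher in 7 of 18 alternatives, which were those that rescaled or centred the libraries, removed the trend on GC content and length, or used the rebuilt reads. Rescaled without the 4 short RNAs it had an adjusted p of 0.0294. In voom on the rebuilt reads, where 11.6% of all genes were called higher and 11.8% lower, the members called were KLF3, KLF4 and KLF9 higher and KLF6 and KLF7 lower.

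The remaining members gave no call in any setting run. KLF5, an activator tied to proliferation in epithelia, went from 5.23 ± 0.301 to 4.62 ± 0.118 TPM (SD, n = 3), with silenced values that all lay below the controls, and its log2 fold change was -0.15 (95% interval -0.34 to 0.043, adjusted p = 0.322, limma). KLF10, the TGF-beta-inducible early gene, went from 20.0 to 19.3 TPM with overlapping values, and its interval was -0.25 to 0.15. KLF11, its closest relative, went from 5.43 to 5.59 TPM, with an interval of -0.16 to 0.23. KLF2, known from endothelial cells and quiescent lymphocytes, was at 0.916 and 0.919 TPM, and KLF13 at 0.853 and 0.785 TPM. With voom on genes that averaged at least 10 rebuilt reads, a fit added once the values were known in which both were tested, the intervals were -0.30 to 0.43 for KLF2 and -0.29 to 0.15 for KLF13. All of these intervals hold 0, which does not show that the levels were the same. Silenced values lay entirely above the controls for 2 of the 8 tested members and entirely below for 2, against 11.0% and 19.3% of all tested genes. KLF9, among those above, was tested only through its NEAT1siRNA level, so nothing is read from these counts.

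**Figure D2:**
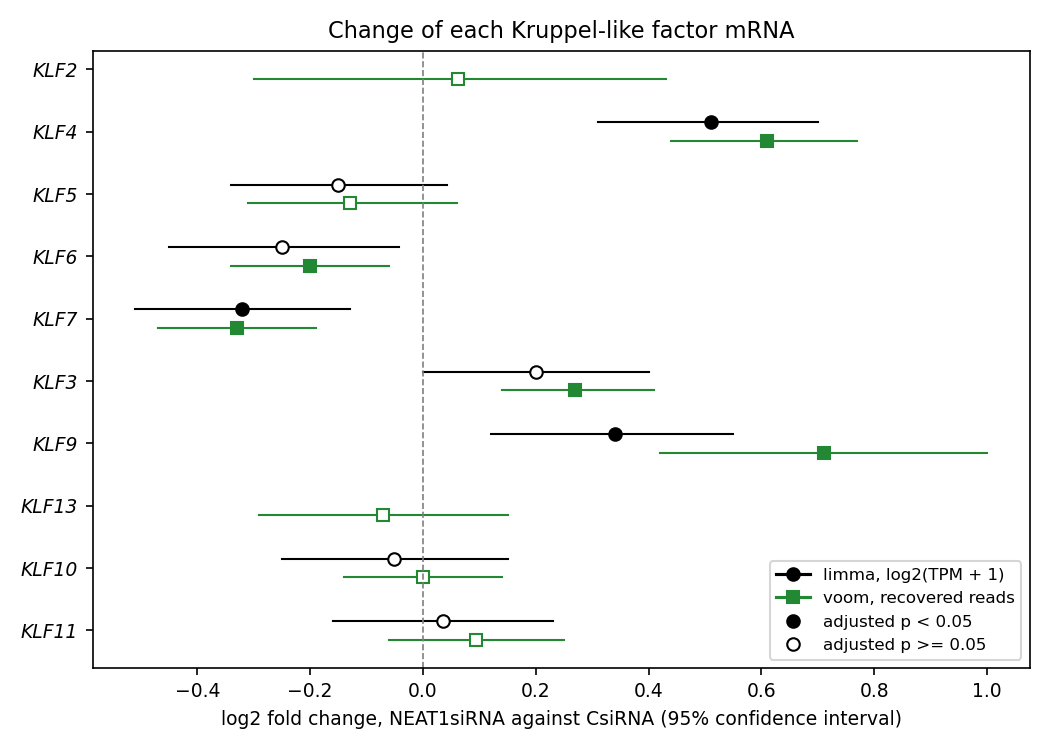
Log2 fold change of NEAT1siRNA against CsiRNA with its 95% interval (horizontal axis) for each member. Circles are limma on log2(TPM + 1) and squares voom on genes that averaged at least 10 rebuilt reads, filled where the adjusted p was below 0.05. KLF4, KLF7 and KLF9 are filled in both, KLF3 and KLF6 only for voom.

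**Figure D3:**
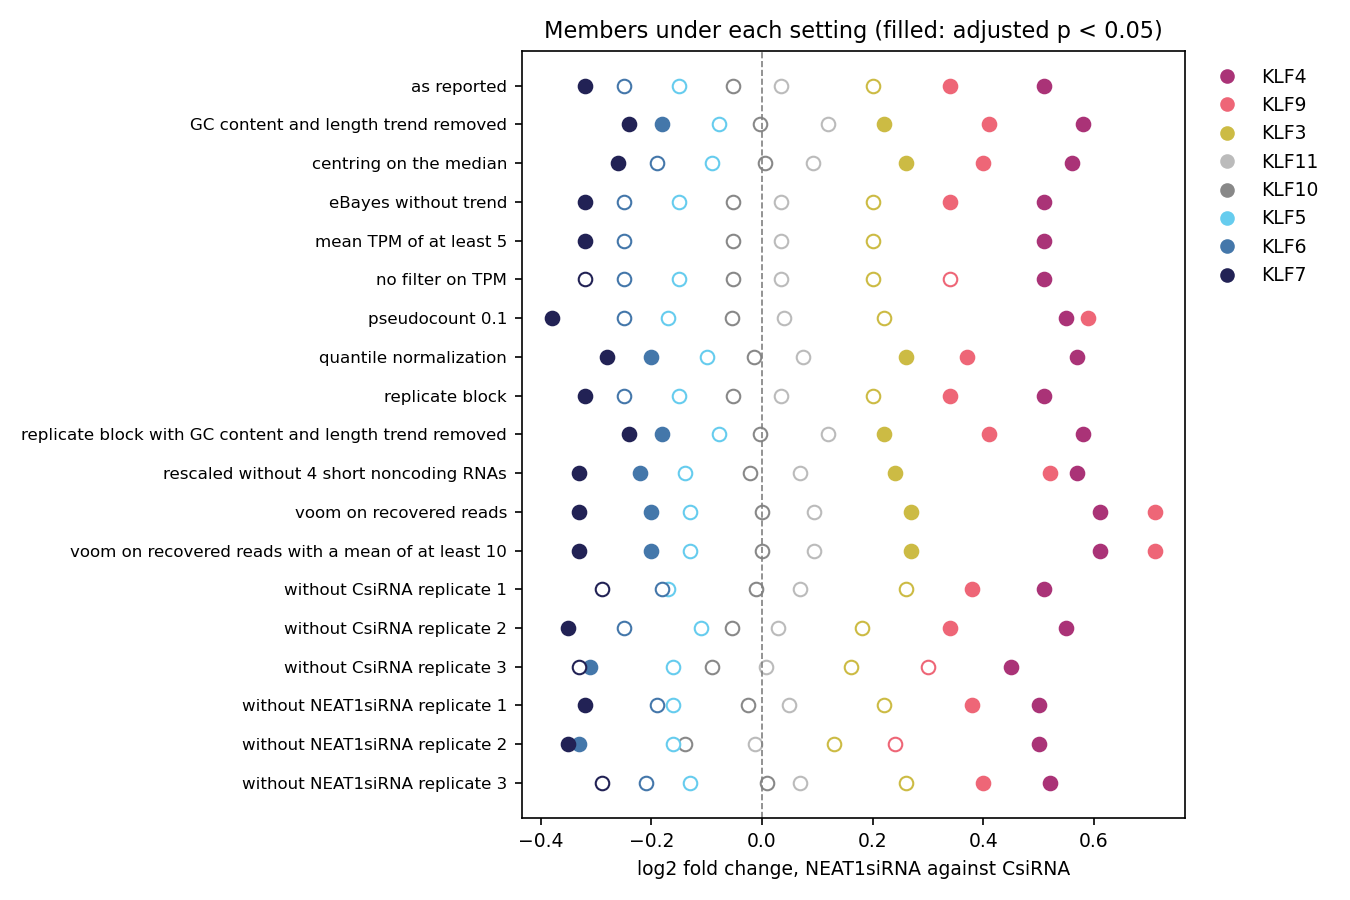
Log2 fold change of the 8 tested members (horizontal axis) as reported and under up to 18 alternative settings (vertical axis; KLF5 and KLF9 have 17, since they averaged under 5 TPM), filled where the adjusted p was below 0.05. KLF4 is filled throughout, KLF3 and KLF6 in 7 and 8 settings, and KLF5, KLF10 and KLF11 in none.

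The share of each member in the summed TPM of the 10 genes is a ratio within a library and does not move with its scaling. KLF6 made up 41.5%, 40.1% and 39.4% of the sum in CsiRNA and 33.4%, 35.7% and 35.2% in NEAT1siRNA. KLF4 made up 8.50%, 9.63% and 8.83%, and then 14.1%, 12.4% and 14.1%. KLF3 made up 11.6%, 11.0% and 11.4%, and then 13.7%, 13.7% and 13.2%. The groups did not overlap for these 3, nor for KLF7, which went from 5.95% to 4.68%, KLF9, from 0.883% to 1.42%, or KLF11, from 5.44% to 5.75%. Each of the 6 had an exact two-sided permutation p of 0.1, the smallest that 3 against 3 libraries allow, and an adjusted p of 0.167 over the 10 shares, so this test could not pass 0.05. The shares are tied to each other, since they sum to the whole.

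Pairs of KLF genes, not all of them close relatives, were set side by side after their values were seen, 7 ratios in all. KLF4 was 9.78 ± 0.357 times KLF2 (SD, n = 3) in CsiRNA and 14.4 ± 1.71 times in NEAT1siRNA, and KLF9 was 1.04 ± 0.107 and 1.79 ± 0.456 times KLF13. The KLF6 to KLF7 ratio overlapped between groups, at 6.79 ± 0.502 and 7.43 ± 0.526, as did KLF3 to KLF12. KLF3 to KLF6 went from 0.281 ± 0.00750 to 0.390 ± 0.0177 and KLF4 to KLF6 from 0.223 to 0.390, both without overlap. KLF10 to KLF11 went from 3.68 ± 0.0307 to 3.45 ± 0.145, also without overlap. No ratio could pass, with adjusted exact permutation p-values of 0.14 at the lowest over the 7. The mRNAs of KLF6 and KLF7 held the longest exact stretch shared by 2 members, in their coding sequences. Here only a read that lay wholly within the stretch could not be told apart, and read length was not examined.
KLF6 and KLF7 shared stretch of 26 bases: gacaggtgtttttccaggtctgacca

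**Figure D4:**
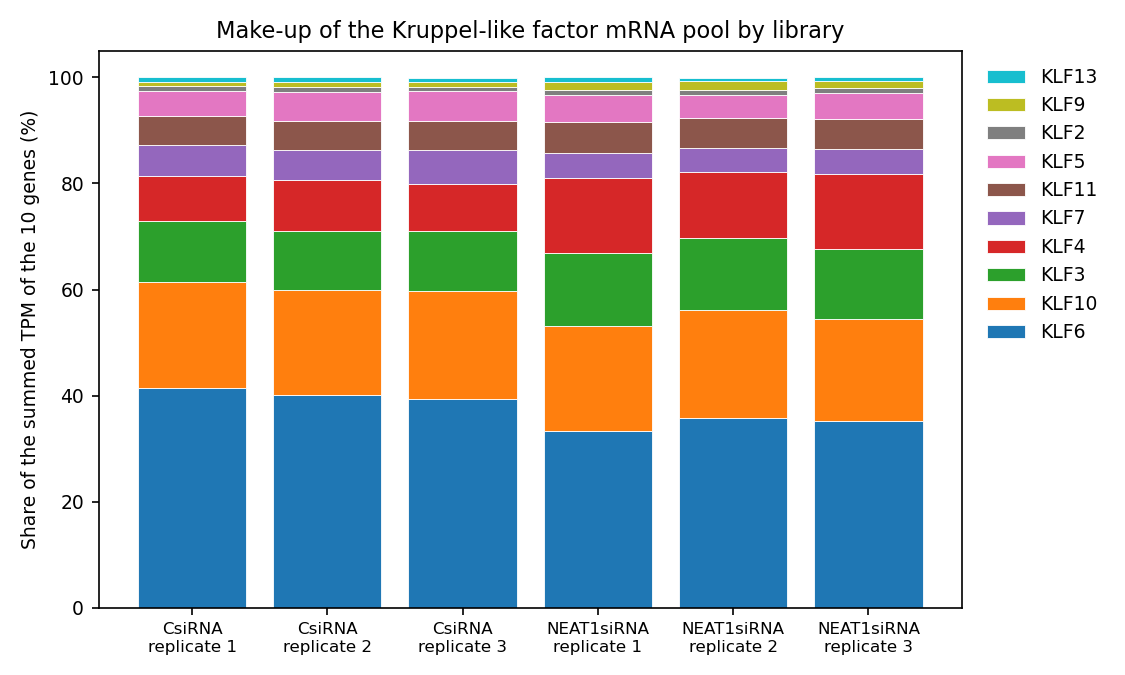
Share of each member in the summed TPM of the 10 genes (vertical axis, percent) in each of the 6 libraries. The KLF6 segment is smaller in the 3 NEAT1siRNA libraries, at 33.4% to 35.7% against 39.4% to 41.5%, and the KLF3 and KLF4 segments are larger.

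The rest of the family and its partners gave no call with limma on log2(TPM + 1), and 5 of 22 tested genes with voom on the rebuilt reads, 4 higher and 1 lower. Over all genes that fit called 11.6% higher and 11.8% lower, so the share of these 22 that was called is near the background. Of the other KLF genes, only KLF12 and KLF16 were tested, at 3.87 and 4.37 TPM for KLF12 and 11.8 and 11.0 TPM for KLF16, and none of these 2 was called. The related SP factors SP1, SP2, SP3 and SP4, which bind the same GC boxes, were tested and 0 of 4 called, with log2 fold changes between 0.086 and 0.19. The corepressor and coactivator genes SIN3A, SIN3B, HDAC1, HDAC2, CTBP1, CTBP2, EP300, CREBBP and KAT2B gave 0 of 9, and the ubiquitin ligases that act on KLF proteins or related substrates gave 0 of 7. At an unadjusted p under 0.05 the limma counts were 0 of 2, 0 of 4, 0 of 9 and 1 of 7, the last being SMURF1. With voom, KLF12 was called higher, at a log2 fold change of 0.23 (adjusted p = 0.0250), as were SP3 at 0.25 (adjusted p = 0.0199) and the KLF3 partners CTBP1 at 0.24 (adjusted p = 0.0105) and CTBP2 at 0.21 (adjusted p = 0.0302). SMURF1 was called lower, at -0.25 (adjusted p = 0.0226).

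Genes known to act upstream of KLFs gave 3 calls among 12 tested, 2 higher and 1 lower, against 4.99% and 8.98% of all tested genes. This list and that of glucocorticoid receptor targets were chosen with earlier results of these data known, so their counts are no test against all genes. MEF2A is one of the MEF2 factors through which the MEK5 and ERK5 kinases induce KLF2 and KLF4. It was at 12.6, 12.8 and 11.0 TPM in CsiRNA and 15.5, 19.6 and 15.0 TPM in NEAT1siRNA. That was a rise of 0.42 on the log2 scale (SE 0.10, adjusted p = 0.00647, limma). Its relative MEF2D (-0.13), MAPK7 for ERK5 (-0.19) and MAP2K5 for MEK5 (0.097) were not called, and MEF2C, below 1 TPM, was not tested by limma. In voom on genes that averaged at least 10 rebuilt reads, MEF2C was called higher (log2 fold change 0.42, SE 0.13, adjusted p = 0.0295). MEF2D, MAPK7 and MAP2K5 were not called in that fit either. A part of this route in the KLF4 level was not tested. NR3C1, the glucocorticoid receptor, rose from 45.6 ± 3.51 to 57.3 ± 7.78 TPM (SD, n = 3), with a log2 fold change of 0.32 (adjusted p = 0.0323, limma). The NR3C1 call was lost in 5 of the 6 fits that left out 1 library, with adjusted p-values up to 0.0872. TGFBR2, the type II TGF-beta receptor, fell from 17.8 ± 0.948 to 12.1 ± 1.39 TPM, with a log2 fold change of -0.52 (adjusted p = 0.000604, limma). Among 5 tested glucocorticoid receptor targets, CRISPLD2 rose, from 11.9 ± 0.857 to 17.7 ± 0.510 TPM (adjusted p = 0.000294, limma), while FKBP5, SGK1, PER1 and DUSP1 were not called by limma. With voom on the rebuilt reads, FKBP5 (log2 fold change 0.43, adjusted p = 0.00137) and SGK1 (0.26, adjusted p = 0.00720) were called higher as well, which made 3 of 5, against 11.6% of all genes in that fit. For limma the share called higher was 1 of 5, against 4.99%. TSC22D3, also on this list, lay below 1 TPM and was not among the 5. In voom on genes that averaged at least 10 rebuilt reads it was called higher (log2 fold change 0.73, adjusted p = 0.0315). ZBTB16, the remaining listed target, had too few reads for any of these fits.

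Of 9 tested genes known as KLF targets, 4 fell and 1 rose, against 8.98% and 4.99% of all tested genes, with a median log2 fold change of -0.24 against -0.0441 over all genes. CCND1, cyclin D1, was at 15.3, 14.8 and 14.9 TPM in CsiRNA and 8.46, 9.72 and 7.82 TPM in NEAT1siRNA, and its log2 difference was -0.73 (SE 0.095, adjusted p = 8.54e-06, limma). PLAU, urokinase, also had a log2 fold change of -0.73, S1PR1, a sphingosine-1-phosphate receptor, -0.59, and EDN1, endothelin-1, -0.57. LGALS3, galectin-3, rose by 0.46. CDKN1A, the p21 inhibitor that KLF4 and KLF6 are known to induce, was at 2.76 and 3.45 TPM and was not called by limma (adjusted p = 0.0981). It was called higher with voom on the rebuilt reads (log2 fold change 0.37, SE 0.12, adjusted p = 0.0338), which made 2 of the 9 higher and 4 lower in that fit. The list was not split into genes that KLFs induce and genes that they repress, so its counts and median give no direction of KLF activity. This list and the immediate early list below were chosen with earlier results of these data known. Their counts are therefore no test against all genes. These genes answer to many other factors, and the part of KLFs in their levels was not tested. Of 6 tested immediate early genes, a class with which KLF2, KLF4, KLF6 and KLF10 share rapid induction, JUN, IER3 and IER2 fell, with log2 fold changes of -0.48, -0.48 and -0.46, against 8.98% of all tested genes called lower. JUNB, EGR1 and ATF3 were not called by limma or voom.

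**Figure D5:**
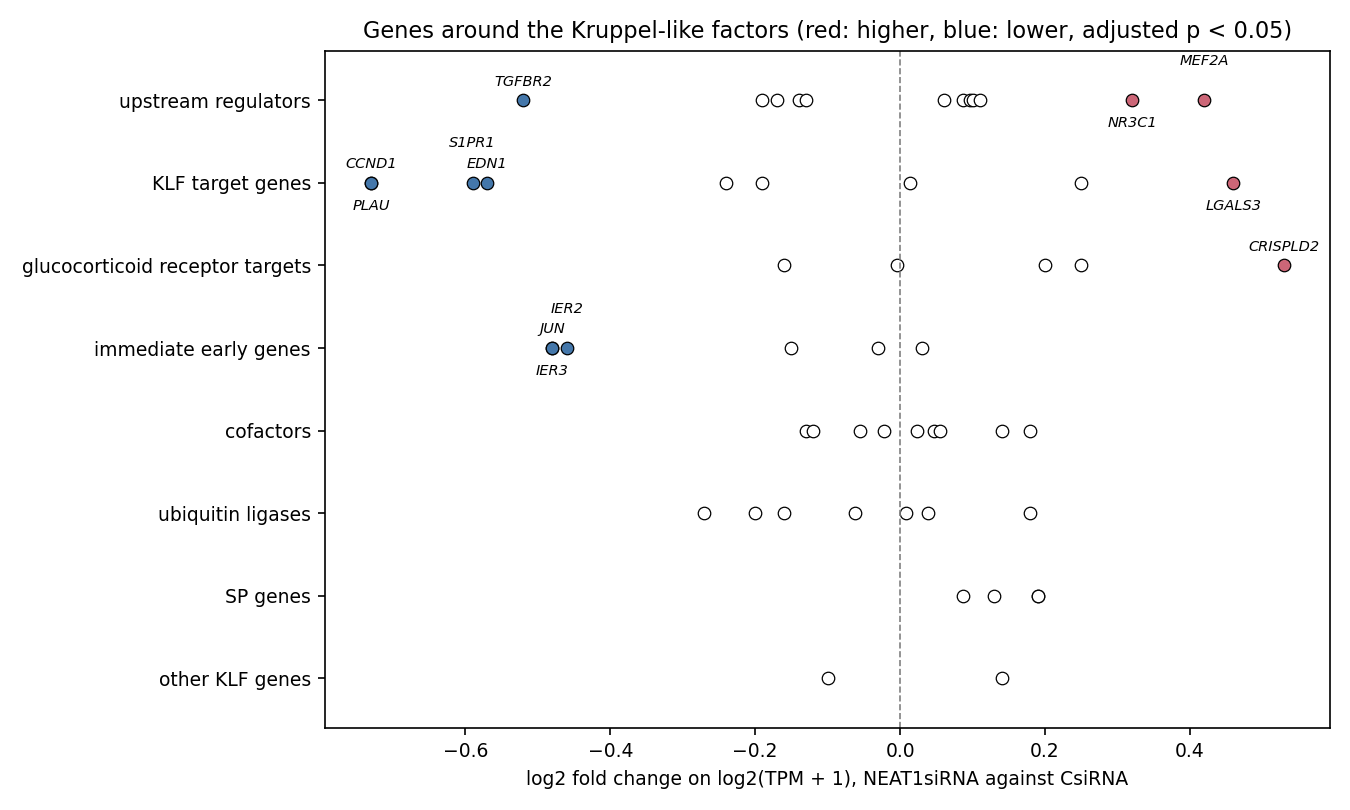
Log2 fold change on log2(TPM + 1) (horizontal axis) of the tested genes of 8 lists related to the KLFs (vertical axis), coloured and named where the adjusted p was below 0.05. CCND1 and PLAU lie farthest from 0, both at -0.73, and no cofactor, ubiquitin ligase, SP gene or other KLF gene is coloured in this limma fit.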

How the data were processed

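RNA-seq of BT-549 cells was analysed in 6 libraries. Per the labels and methods, the authors aligned TruSeq stranded mRNA reads with STAR to GRCh38. The deposited TPM were made by the authors with a counting tool not given in the sources used here. A second deposited table gives 1 mean normalized count per gene (a signal the authors pooled from 6 libraries). Its fold changes and p-values are the authors' own DESeq2 comparison and were not used.

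TPM are not counts, so log2(TPM + 1) was compared with lmFit and eBayes (trend) of limma 3.58.1 in R 4.3.3, for genes that averaged at least 1 TPM, with Benjamini-Hochberg adjustment at 0.05. Reads were rebuilt by combining the TPM with the mean normalized counts. Of the rebuilt values, 99.9% were within 0.05 reads of a whole number for genes with a mean normalized count of 0 to 5, 98.6% for 5 to 50, 70.6% for 50 to 500 and 14.2% above, so for abundant genes they are estimates. voom on these reads called 2505 genes. Intervals are 95%. Exact permutation tests cannot go below 0.1 here. Symbols were matched to GENCODE, with 22278 current, 783 older and 2484 unmatched.

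The fit was tested on simulated libraries with known changes, and it recovered the larger of them. Recovery of changes as small as those of KLF4, KLF7 and KLF9 was not established. Nor was recovery under the trends on GC content seen in these libraries. Because TPM is a closed sum, a draw that altered RN7SK, a large part of all TPM, also shifted the TPM of unaltered genes, and many were called. Rescaling without the 4 abundant short RNAs, which is among the alternatives, removed nearly all of those calls. Python 3.11.15 was used elsewhere. All members were named, and of each related list the genes past the threshold, at most 6 by size of change. The members and lists were chosen with earlier results of these data known. A gene of the KLF target list and one of the leukocyte list are not reported here and were left out of those lists' counts.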

Additional observations from a re-analysis of the deposited data

How the results depend on the processing

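The number of members called, 3 as reported, was 5 with quantile normalization, TPM rescaled without the 4 short RNAs, removal of the trend on GC content and length, the replicate block with that removal, and voom on rebuilt reads with or without a mean of at least 10 reads (the last was added once the values were known). With limma on log2(TPM + 1) and no TPM filter, 1 member, KLF4, was called. Over all genes 1498 were called, and 3468 with the trend removed, 3390 with the block added to that, 505 with no filter, 2505 with voom and 2792 with voom on a mean of at least 10 reads. Leaving out 1 library gave 759 (without CsiRNA replicate 1) to 2083 (without NEAT1siRNA replicate 2), with 838 without NEAT1siRNA replicate 3. Scaling moved the split of calls from 535 higher and 963 lower to 1158 and 954 after centring on the median and 1082 and 1109 after quantile normalization.

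Replicate numbers are not said to pair libraries, and deviations of same-numbered libraries correlated at -0.03, 0.25 and -0.11. With the replicate block alone, 1640 genes and 3 members were called, and the log2 fold change of NEAT1 was -1.41. No result changed sign in the settings run for called members. TPM hold no absolute amount: a common shift from the abundant short RNAs cannot be told apart from a shift in all mRNAs. The calls of KLF3 and KLF6 moved with the scaling, and their SEs changed more than their log2 fold changes. Rescaled without the 4 short RNAs, KLF3 was at 0.24 (SE 0.068) and KLF6 at -0.22 (SE 0.067). As reported they were at 0.20 and -0.25, each with an SE of 0.098. At about 50 to 130 reads, KLF2 and KLF9 are the least precise.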
